A study of Mus musculus with 12 samples.

Results

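The H2-Q and H2-T genes are class I genes of the mouse major histocompatibility complex (MHC) on chromosome 17. Every captured promoter of the promoter Capture-C table whose gene name starts with H2-Q or H2-T was taken: H2-Q4, H2-Q6, H2-Q7, H2-T24, H2-T23 and H2-T22. These are 6 of 3781 captured promoters in the series, with 236 of its 89545 listed contacts. Membership was chosen by gene name, but the family was selected on the excess of adult over fetal calls at H2-Q7 and H2-T22, so call numbers are given as a description. In Capture-C, fixed chromatin is cut with DpnII and religated, and probes then pull out the junctions of selected promoters, so that the reads tell which distal pieces of DNA lay near each promoter. The study compared haematopoietic stem cells (HSCs) from fetal liver at embryonic day 14.5 with HSCs from the bone marrow of adult mice aged 6 to 8 weeks, all of strain B6129SF1. Both were sorted as cells without lineage markers that carried Sca1 and cKit and lacked CD135, a gate that also admits multipotent progenitors beside stem cells. The labels name no transgene or treatment. Each population had 4 libraries, 2 in each of 2 batches, and all 6 promoters belong to the first batch, which held 1952 promoters and 49944 contacts. The remaining 4 samples of the series, from the HPC7 cell line, were not analysed here.

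Class I molecules are cell-surface heavy chains that pair with beta-2 microglobulin. The classical ones, H2-K1 and H2-D1 in this strain background, show peptides from inside the cell to cytotoxic T cells. The Q and T regions hold the nonclassical class I genes, many of them close copies of each other in tandem. H2-Q7 encodes the Qa-2 antigen, and H2-Q6 is a closely related neighbour. H2-T23 encodes Qa-1, which presents leader peptides of other class I chains to receptors of natural killer cells, and H2-T22 encodes a ligand of gamma-delta T cells. Class I promoters commonly carry a kappaB-containing enhancer A, an interferon-stimulated response element (ISRE) and an X and Y box module through which NLRC5 acts.

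The promoters of the members are shown because their likeness bears on which copy a sequence read can be placed on. The sequences are the 250 bases before the annotated transcript start in RefSeq (build GRCm38.p6, chromosome 17), read 5′ to 3′ on the strand of the gene. They were found for 5 of the 6 members. Capitals mark CCAAT (the Y box core), TGACG (part of a CRE), the ISRE core and the kappaB site of enhancer A, each on either strand and without overlap among the capitals.
H2-Q4, chr17:35379367-35379616, plus strand: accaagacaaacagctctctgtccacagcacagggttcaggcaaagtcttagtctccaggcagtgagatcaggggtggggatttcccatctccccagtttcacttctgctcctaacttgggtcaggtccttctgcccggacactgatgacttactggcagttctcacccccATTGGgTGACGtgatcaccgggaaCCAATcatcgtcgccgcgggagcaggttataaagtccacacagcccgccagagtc
H2-Q6, chr17:35424600-35424849, plus strand: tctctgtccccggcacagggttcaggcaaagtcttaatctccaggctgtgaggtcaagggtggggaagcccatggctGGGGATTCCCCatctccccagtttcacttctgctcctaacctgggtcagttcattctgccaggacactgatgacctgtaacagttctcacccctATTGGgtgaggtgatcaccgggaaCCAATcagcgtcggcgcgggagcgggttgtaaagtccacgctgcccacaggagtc
H2-Q7, chr17:35438905-35439154, plus strand: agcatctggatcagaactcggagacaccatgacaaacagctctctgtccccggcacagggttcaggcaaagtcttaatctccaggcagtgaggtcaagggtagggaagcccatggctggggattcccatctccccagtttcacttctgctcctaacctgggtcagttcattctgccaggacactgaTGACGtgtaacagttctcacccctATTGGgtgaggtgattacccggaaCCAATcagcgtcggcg
H2-T23, chr17:36032702-36032951, minus strand: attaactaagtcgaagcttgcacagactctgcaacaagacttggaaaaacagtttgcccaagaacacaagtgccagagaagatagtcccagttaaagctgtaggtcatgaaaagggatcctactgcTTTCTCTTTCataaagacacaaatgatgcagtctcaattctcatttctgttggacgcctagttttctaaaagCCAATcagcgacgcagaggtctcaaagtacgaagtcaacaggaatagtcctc
H2-T22, chr17:36042743-36042992, minus strand: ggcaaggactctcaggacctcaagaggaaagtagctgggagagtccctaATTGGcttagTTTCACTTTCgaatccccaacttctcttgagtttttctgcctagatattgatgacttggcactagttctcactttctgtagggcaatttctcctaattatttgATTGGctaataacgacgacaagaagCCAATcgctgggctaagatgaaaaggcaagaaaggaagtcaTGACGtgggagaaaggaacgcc

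CCAAT stood in 5 of these 5 windows, against 33.8% of 32851 RefSeq promoter windows of the same length. The 10-letter ISRE core, which leaves its middle pair of letters free, stood in 2 of 5, those of H2-T23 and H2-T22 (2.98% of all windows), and TGACG in 3 of 5 (17.8%). Only these exact strings were searched, so a window without one can still hold a variant of the site. The H2-Q4, H2-Q6 and H2-Q7 windows, for instance, all hold tttcacttct, which the ISRE string does not match. The 11-letter kappaB site, shown in the H2-Q6 line, stood as this exact string in H2-Q6 alone among the 5 (0.0304% of all windows). The H2-Q4 window holds ggggatttccc and the H2-Q7 window ggggattccca, each a single letter away from it. GATC, the DpnII cutting site searched on both strands and not capitalised, stood in 4 of 5 windows (41.9%). The H2-Q6 and H2-Q7 windows were identical at 97.6% of 210 aligned bases. H2-Q4 shared 88.9% of 234 aligned bases with H2-Q6 and 89.5% of 210 with H2-Q7. H2-T23 and H2-T22 shared 62.3% of 204 aligned bases, so the H2-Q windows were the closer copies. How reads that match several copies were placed is not given in the sources used here, and its part in the values that follow was not tested.

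The table holds 1 value per population for each contact, pooled over libraries. There is therefore no spread between replicates, no difference below could be tested, and the intervals given (exact Clopper-Pearson, 95%) cover counting error only. A contact joins a promoter fragment to a distal bin of 2 kb. It counts as called in a population where its score is above 0, and the lowest score above 0 in the first batch was 1.3. A contact is listed only if it was called in at least 1 population. Over the first batch, counts of listed contacts summed to 1312829 in fetal and 1098957 in adult HSCs, with 32260 fetal and 30529 adult calls.

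All 6 genes had higher expression in adult HSCs, and the gap was widest in the Q region. Expression is given as FPKM, a value per gene length that the authors deposited once per population. H2-Q6 had an FPKM of 0.0781 in fetal HSCs and of 59.8 in adult HSCs. H2-Q7 had 0.0969 fetal and 46.0 adult FPKM. Both genes went from near 0 to levels close to that of H2-Q4, whose FPKM was 3.71 in fetal and 68.1 in adult HSCs. In the T region the fetal level was not near 0. H2-T23, the Qa-1 gene, had 12.8 fetal and 62.6 adult FPKM, H2-T22 had 4.39 and 17.4, and H2-T24 had 1.72 and 5.81.

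As log2 ratios of adult over fetal FPKM, with 1 added to each, the differences were 5.82 for H2-Q6, 5.42 for H2-Q7, 3.88 for H2-Q4, 2.20 for H2-T23, 1.77 for H2-T22 and 1.33 for H2-T24. The ratio was at least 2-fold in 6 of 6 members, against 13.3% of the first-batch promoters. Only 1 promoter of the 1952 had a higher ratio than H2-Q6, 2 had a higher ratio than H2-Q7 and 8 a higher one than H2-Q4. The median over the 6 was 3.04, against 0.04 over all first-batch promoters. The deposited table marks all 6 as differentially expressed, as it does 35.5% of first-batch promoters. The adult levels ran from H2-Q4 through H2-T23, H2-Q6, H2-Q7 and H2-T22 to H2-T24, and the fetal levels from H2-T23 through H2-T22, H2-Q4, H2-T24 and H2-Q7 to H2-Q6. Without a spread, neighbours in either order cannot be said to differ. In bulk RNA, fewer cells of a type and less RNA per cell cannot be told apart, and FPKM of near-identical copies depends on how shared reads were assigned.

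**Figure D1:**
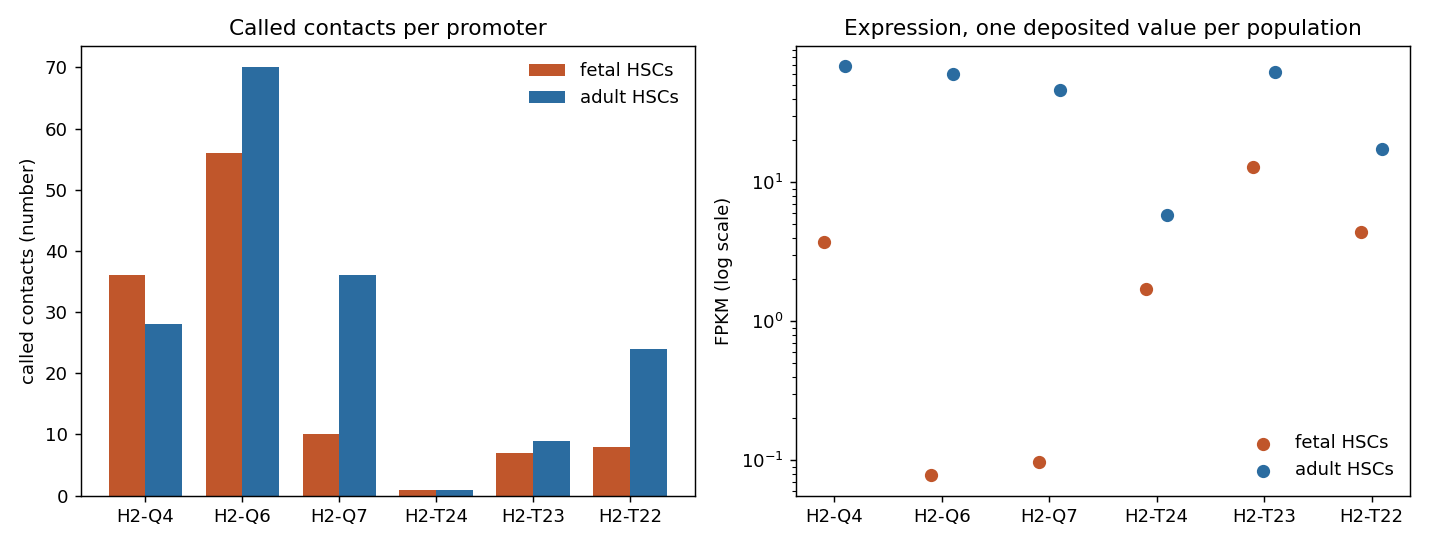
Called contacts per promoter (left, number, bars) and FPKM (right, log scale, points) of the 6 genes in fetal and adult HSCs, 1 pooled value per population. FPKM is higher in adult HSCs for all 6 genes, while calls are clearly more numerous in adult HSCs only at H2-Q7 (10 fetal, 36 adult) and H2-T22 (8 fetal, 24 adult).

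Called contacts did not follow expression promoter by promoter. H2-Q4 (fragment chr17:35516497-35516637 in mm9, the build of the deposited coordinates) had 36 fetal and 28 adult calls, although its adult FPKM was the highest of the 6. H2-Q6 (chr17:35561730-35561870) had 56 fetal and 70 adult calls, the most of the family. H2-Q7 (chr17:35575860-35576214) had 10 fetal and 36 adult calls. H2-T24 (chr17:36157467-36159223) had 1 call in each population, H2-T23 (chr17:36169780-36170132) had 7 fetal and 9 adult calls, and H2-T22 (chr17:36179547-36180060) had 8 fetal and 24 adult calls.

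The log2 ratio of adult over fetal calls, with 1 added to each, was 1.75 for H2-Q7 and 1.47 for H2-T22. It was 0.32 for both H2-Q6 and H2-T23, 0 for H2-T24 and -0.35 for H2-Q4. A ratio of at least 2-fold towards adult cells was thus met by 2 of 6 members, the ones picked for it, against 9.84% of first-batch promoters. Summed over the 6, there were 118 fetal and 168 adult calls. Without H2-Q7 and H2-T22 the log2 ratio of the summed calls was 0.11, against 0.51 with them. Raising the score limit by 1 unit left 3 fetal and 11 adult calls at H2-Q7 and 4 fetal and 12 adult calls at H2-T22. That limit turned the direction at H2-Q4, to 8 fetal and 17 adult calls. Among promoters with at least 20 calls in total, Pabpc4 stood just above H2-Q7 (3 fetal, 19 adult calls) and Racgap1 just below H2-T22 (5 fetal, 15 adult calls). Both of those genes had lower FPKM in adult HSCs, Pabpc4 73.2 fetal and 34.9 adult, Racgap1 28.8 fetal and 15.4 adult. Next in that order, Gtf2h4 was also lower in adult HSCs (15.6 and 9.21 FPKM). Sbds (12.8 and 15.5), Tead2 (3.29 and 7.33) and Nwd1_1 (0.371 and 7.20) were higher. Over all first-batch promoters, 28 had a higher call ratio than H2-Q7 and 51 a higher one than H2-T22.

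**Figure D2:**
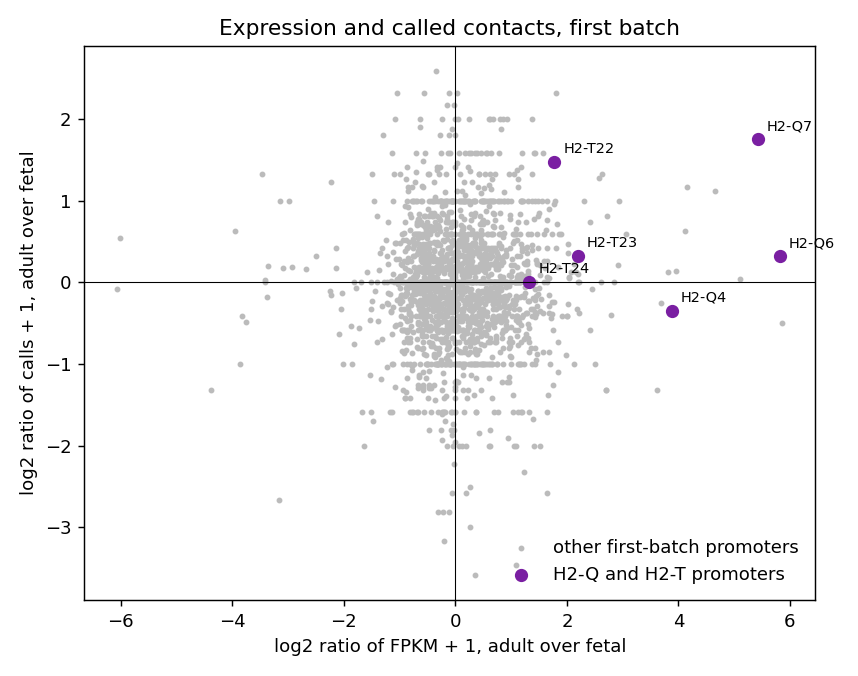
Log2 ratio of calls (vertical, 1 added) against log2 ratio of FPKM (horizontal, 1 added), both adult over fetal, for the first-batch promoters (grey) and the 6 H2-Q and H2-T promoters (purple). The 6 lie to the right of 0, from 1.33 at H2-T24 to 5.82 at H2-Q6, but spread from -0.35 to 1.75 in calls.

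The genes whose pattern was most like that of H2-Q7, by distance in these 2 ratios over 1029 promoters with at least 20 calls, were H2-Q6, Myl10 (12 fetal and 19 adult calls, 0.508 and 25.3 FPKM) and Jun (31 and 32 calls, 2.18 and 109 FPKM). Nearest to H2-T22 were Tmem40 at its promoter Tmem40_1 (18 and 36 calls, 6.03 and 22.9 FPKM), Il15ra (7 and 15 calls, 2.57 and 9.44 FPKM) and Itsn1 (22 and 42 calls, 6.51 and 23.1 FPKM). The distances were 1.49, 1.72 and 1.73 for H2-Q7, larger than the 0.512, 0.524 and 0.578 for H2-T22. The call ratios of H2-Q6 (0.32), Myl10 (0.62) and Jun (0.04) lay well below the 1.75 of H2-Q7. None of these 3 thus had its adult excess of calls. The comparison rests on 2 populations only.

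Ligation counts ran against the calls. Over their listed contacts, H2-Q7 had 2788 fetal and 814 adult counts, a log2 ratio of -1.78 (interval -1.89 to -1.66). H2-T22 had 1687 fetal and 825 adult counts (-1.03, interval -1.15 to -0.91), and H2-T23 had 1132 and 712 (-0.67, interval -0.81 to -0.53). H2-Q6, with 1812 and 1873 counts, and H2-Q4, with 413 and 436, had sums whose intervals include 0 as deposited. Scaled to the first-batch totals, which are lower in adult HSCs, both leaned to adult cells, H2-Q6 at 0.30 (interval 0.21 to 0.40) and H2-Q4 at 0.33 (interval 0.14 to 0.53). H2-T24 had 25 fetal and 38 adult counts (0.60, interval -0.16 to 1.39), and 0.86 after scaling (interval 0.095 to 1.65). H2-Q7, H2-T22 and H2-T23 kept a fetal excess after scaling, at -1.52, -0.78 and -0.41. The 2 promoters with the largest adult excess of calls therefore had the largest fetal excess of counts.

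A single bin carried that fetal excess at each of H2-Q7, H2-T22 and H2-T23. H2-Q7 had 2366 fetal and 256 adult counts at the bin chr17:35530001-35532001, 45.0 kb away, which is 84.9% of its fetal and 31.4% of its adult counts. H2-Q6 had 548 fetal and 253 adult counts at the same bin, 30.8 kb from its own fragment. H2-T22 had 1331 fetal and 352 adult counts at chr17:36258001-36260001, 79.2 kb away. H2-T23 had 915 fetal and 436 adult counts at chr17:36248001-36250001, 79.0 kb away. The contacts were called in both populations, with scores for H2-Q7 and H2-T22 that are infinite in fetal HSCs and 86.6 and 187 in adult HSCs.

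The bins around these peaks had few counts. Among the listed bins 2 or 4 kb from the peaks of H2-Q6, H2-Q7, H2-T23 and H2-T22, fetal counts ran from 6 to 62 and adult counts from 12 to 60. Without its highest contact, H2-Q7 had 422 fetal and 558 adult counts, a log2 ratio of 0.40. H2-T22 then had 356 and 473 (0.41), H2-T23 had 217 and 276 (0.35) and H2-Q6 had 1264 and 1620 (0.36). Over all 6 promoters the sums were 7857 fetal and 4698 adult counts, and 2641 fetal and 3357 adult counts without the highest contact of each. The direction of the summed counts thus depended on 1 contact per promoter. The contact left out was chosen for its count, after seeing the data.

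**Figure D3:**
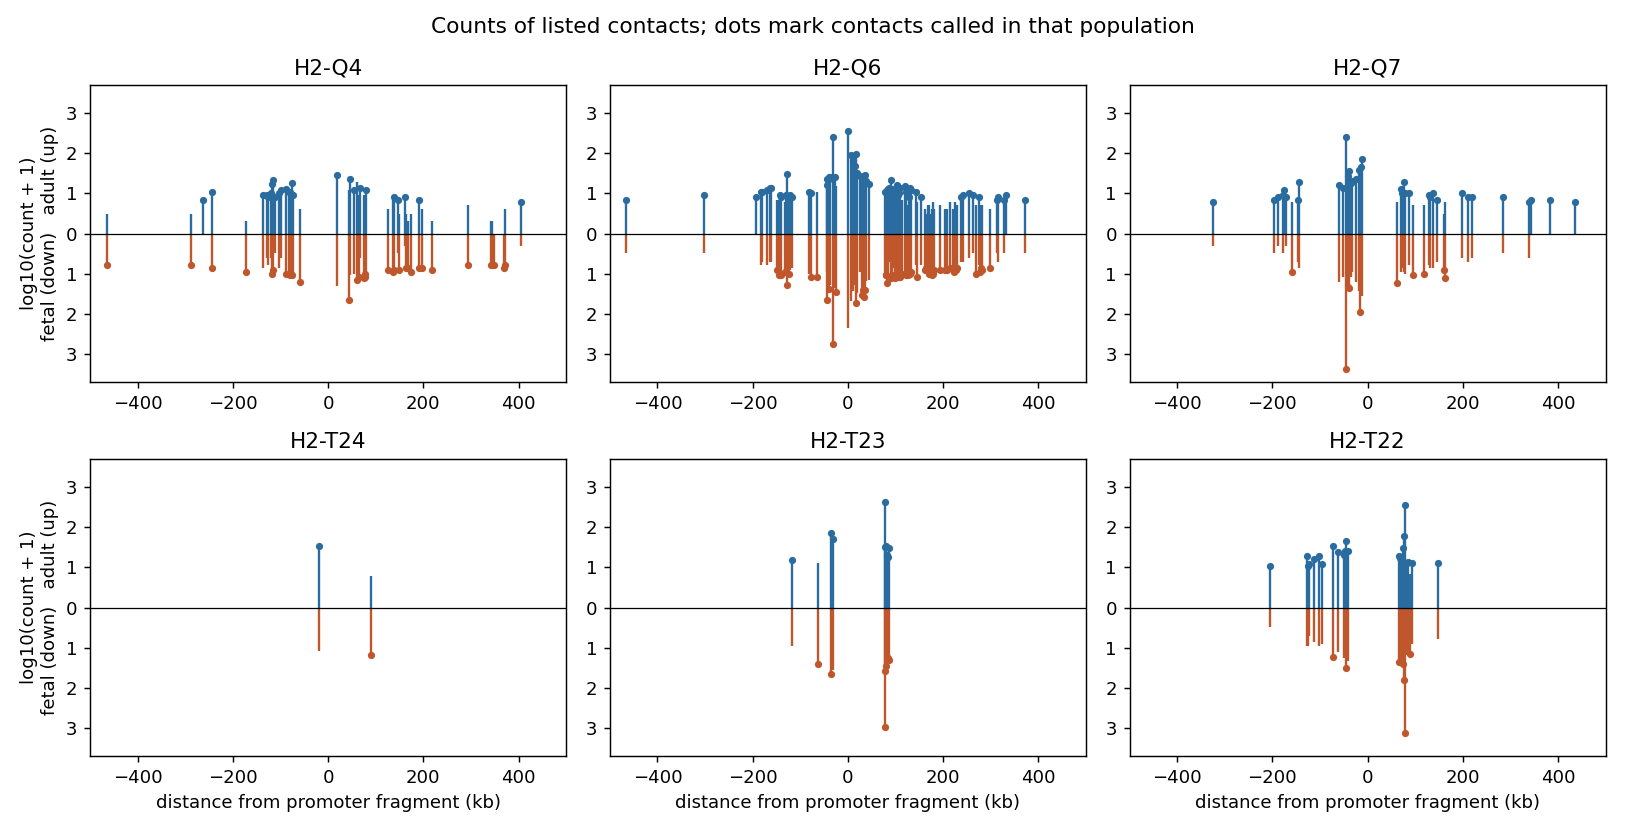
Counts of the listed contacts of each promoter as log10(count + 1), adult HSCs upwards and fetal HSCs downwards, against distance from the promoter fragment in kb, shown to 500 kb. Dots mark contacts called in that population. Single bins stand out at -45.0 kb from H2-Q7, at 79.0 kb from H2-T23 and at 79.2 kb from H2-T22.

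In GRCm38 gene order the interval between H2-Q4 and H2-Q6, where the shared bin of H2-Q6 and H2-Q7 lies in mm9, holds H2-Q5, a transcribed pseudogene, with Gm41576, Gm8750 and Gm32252. The interval from H2-T22 towards H2-T3 holds further class I copies, among them H2-Bl and H2-T10. The files pair no gene with these bins. The peak bins of H2-T23 and H2-T22 lay at nearly the same distance from their fragments on the same side. Contacts of this size were rare: of 48702 first-batch contacts over 20 kb, 52 had at least 500 counts in a population, and 4 of them belong to the members. Of the 52, 45 had more fetal counts and 21 at least 2 times as many. Over first-batch contacts at any distance, 53.3% had more fetal counts. A fetal count of at least 2 times the adult count, with a constant added to both, was found at 21.1%. These counts are not scaled, and first-batch totals were higher in fetal HSCs (1312829, against 1098957 in adult HSCs). A limit of 500 raw counts is reached more easily in the deeper population, and the part of depth was not tested. The 52 contacts spread over 42 promoters. These include members of other clustered gene families (Slfn3, Slfn8, Ms4a6b, Ctla2a and Ifi204), but also Lig1, Rpl37a, Ddx5 and Flt4. All of these were named after their values were seen, and no share of clustered families was computed. Whether reads from other copies add to these bins was not tested.

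**Figure D4:**
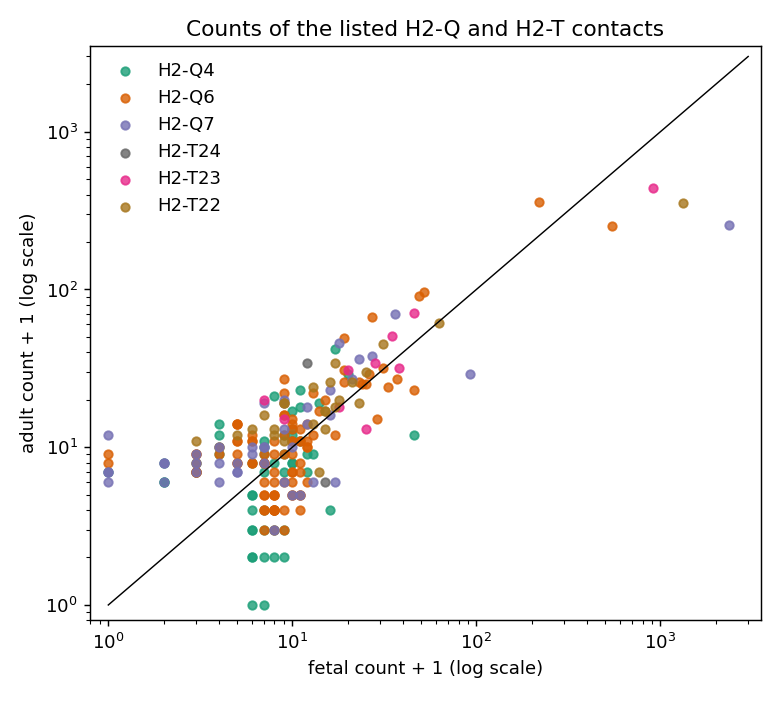
Adult counts (vertical) against fetal counts (horizontal), with 1 added and both axes on a log scale, of the 236 listed contacts, coloured by promoter, with the line of equal counts. The highest contacts of H2-Q7 (2366 fetal, 256 adult), H2-T22 (1331, 352) and H2-T23 (915, 436) lie far below the line, while 141 of the 236 contacts have more adult counts.

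Contact by contact, the members had more adult than fetal calls, mainly through the picked promoters. More adult than fetal counts were found at 141 of 236 contacts (59.7%, interval 53.2 to 66.1), against 43.0% of first-batch contacts. An adult count of at least 2 times the fetal count, with 1 added to each, was found at 59 contacts (25.0%, against 14.3%), and the reverse at 43 (18.2%, against 21.1%). By calls, 118 contacts were adult-specific (50.0%, against 35.4%), 68 fetal-specific (28.8%, against 38.9%) and 50 shared (21.2%, against 25.7%). The shared contacts make up 42.4% of the fetal and 29.8% of the adult calls, against 39.8% and 42.1% in the first batch. If a call within 5 kb in the other population was enough, the shares were 59.3% and 56.0%. The picked promoters weigh on these counts, since 33 of 43 contacts of H2-Q7 and 17 of 25 of H2-T22 were adult-specific, and a contact is listed only because it was called. Without them, in a comparison added after seeing the data, 88 of 168 contacts had more adult counts (52.4%, interval 44.5 to 60.1), 68 were adult-specific (40.5%, interval 33.0 to 48.3) and 60 fetal-specific (35.7%).

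Many calls lay close to the score limit. At H2-Q7, 25 of 36 adult and 7 of 10 fetal scores lay within 1 unit of it, and at H2-T22, 12 of 24 adult and 4 of 8 fetal scores. The 33 adult-specific contacts of H2-Q7 had a median of 9 adult and 5 fetal counts, and 2 of them had at least as many fetal as adult counts. The 17 adult-specific contacts of H2-T22 had medians of 15 adult and 8 fetal counts.

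H2-Q promoters contacted each other's bins. H2-Q4 reached the H2-Q6 bin with 45 fetal and 11 adult counts, called in fetal HSCs (score 9.07). In the other direction, H2-Q6 reached the H2-Q4 bin with 45 fetal and 22 adult counts, called in both. H2-Q7 reached the H2-Q6 bin with 91 fetal and 28 adult counts, called in fetal HSCs only (score 4.55), and H2-Q6 reached the H2-Q7 bin with 18 fetal and 48 adult counts, called in adult HSCs only. The same pair of promoters 15 kb apart thus leaned to fetal cells in one capture and to adult cells in the other. H2-Q4 and H2-Q7 met at 13 fetal and 18 adult counts from H2-Q4, called in fetal HSCs, and at 15 and 15 counts from H2-Q7, called in adult HSCs.

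The longest contact joined H2-Q4 to H2-K1, a classical class I gene 1380 kb away. It had 16 fetal and 41 adult counts, with scores of 15.7 in fetal and 9.93 in adult HSCs. Captured from H2-K1, the H2-Q4 bin had 711 fetal and 487 adult counts with infinite scores in both. The 2 captures thus differed widely in counts and leaned to opposite populations. The contact seen from H2-K1 is one of the 52 first-batch contacts over 20 kb with at least 500 counts. Whether reads from other class I copies add to it was not tested. In all, 7 of the 236 contacts had a captured H2 promoter in the distal bin, and 27 lay within 5 kb of one. No batch share was computed for these 2 counts. Any captured promoter stood in 14 of 236 distal bins (5.93%, interval 3.28 to 9.75), against 5.59% in the first batch. By region it was 9 of 199 H2-Q contacts (4.52%) and 5 of 37 H2-T contacts (13.5%, interval 4.54 to 28.8). None of the 37 H2-T contacts had a captured H2 promoter in its bin. The nearest called bin lay 31.0 kb from H2-T23 and 40.8 kb from H2-T22, farther away than the other captured H2-T fragments.

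H2-T22 and H2-T23 reached bins of other captured genes. The bin of Mrps18b, a mitochondrial ribosomal protein gene, had 8 fetal and 18 adult counts from H2-T22 and 8 and 14 from H2-T23, called in adult HSCs only from both. The bin of Abcf1, which acts in translation initiation, had 16 fetal and 33 adult counts from H2-T22, called in both, and 24 and 12 from H2-T23, called in fetal HSCs only. H2-T22 also reached Tubb5, a beta-tubulin gene, with 2 fetal and 10 adult counts. From the opposite captures, Mrps18b reached the H2-T22 bin with 4 fetal and 15 adult counts and Abcf1 with 18 and 30, both called in adult HSCs only. H2-Q4 reached Stk19 and Gtf2h4, each with 5 fetal and 4 adult counts and called in fetal HSCs only.

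The H2-Q promoters shared a stretch beside H2-D1, the other classical gene. In the bins from 35378001 to 35406001, H2-Q4 had 7 adult and 2 fetal calls with 75 adult and 35 fetal counts. H2-Q6 had 5 adult and 0 fetal calls with 57 and 22 counts, and H2-Q7 had 5 adult and 0 fetal calls with 39 and 6 counts. Adult counts were higher in every listed bin of this stretch, and the stretch was singled out after its values were seen. Its strongest bin, chr17:35400001-35402001, carries active promoter and open-chromatin marks in both populations and lies next to the captured H2-D1 fragment. It had 20 adult and 7 fetal counts from H2-Q4, 13 and 4 from H2-Q6 and 11 and 0 from H2-Q7.

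A stretch on the other side leaned to fetal HSCs. From H2-Q6, 17 successive listed bins at 161 to 229 kb were called in fetal HSCs only, each with 6 to 10 fetal and 2 to 5 adult counts. H2-Q7 had 4 listed bins there, 2 called in fetal and 2 in adult HSCs, and H2-Q4 had 1, called in fetal HSCs. This run was the longest fetal-only run of H2-Q6 and was also chosen after seeing the data.

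The members called 166 distinct bins, all on chromosome 17, and 57 of these were contacted by more than 1 member. There were 11 bins of all 3 H2-Q promoters. Of these, 6 were called from all 3 in adult HSCs and 0 from all 3 in fetal HSCs. A call from all 3 needs a call from H2-Q7, which was picked for its adult excess of calls. These counts are therefore not independent of the selection, and no batch share was computed for such bins. The same limit holds for H2-T22 in the bins shared by the H2-T promoters. The H2-T promoters shared 2 bins among all 3. One, chr17:36138001-36140001, is marked as an active enhancer in adult HSCs only and was called from all 3 in adult and from 0 in fetal HSCs, with 50 adult and 34 fetal counts from H2-T23, 25 and 20 from H2-T22 and 33 and 11 from H2-T24. The other is the peak bin of H2-T23. No bin was shared between an H2-Q and an H2-T promoter.

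Distal bins with an active promoter mark in adult HSCs only were found at 19 of 236 contacts (8.05%, interval 4.92 to 12.3), against 1.74% in the first batch. Counting each bin once, they were 9 of 166 (5.42%), against 1.49%, and without H2-Q7 and H2-T22 they were 11 of 168 contacts (6.55%). By region they made up 11 of 199 H2-Q contacts (5.53%) and 8 of 37 H2-T contacts (21.6%, interval 9.83 to 38.2). Both counts repeat bins reached from more than 1 promoter, so the contacts are not independent, as the interval takes them to be. All 8 H2-T contacts lie between 36246001 and 36260001, in a single stretch. The peak bins of H2-Q7, H2-T23 and H2-T22 carry this adult-only mark, although their counts were higher in fetal HSCs, and so does the bin of H2-Q4 itself. The reverse, a mark in fetal HSCs only, was found at 1 contact (0.424%, against 0.981%), that of H2-Q4 with H2-K1. H2-K1 had 76.1 fetal and 507 adult FPKM, so the mark of a bin need not follow expression.

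Seen from the calling population, 8 of 118 fetal calls stood at bins marked as active promoters in fetal HSCs (6.78%, interval 2.97 to 12.9), against 15.6% of first-batch fetal calls. In adult HSCs 40 of 168 calls did (23.8%, interval 17.6 to 31.0), against 18.3%. H2-Q6 had 0 of 56 fetal calls at such bins, which allows a share of up to 5.36% if 3 calls are taken as the limit of a count of 0 (exact 95% interval up to 6.38%), and 11 of 70 adult calls. H2-Q7 had 0 of 10 fetal calls and 8 of 36 adult calls. H2-Q4 had 6 of 36 and 6 of 28. Active enhancer marks were found at 3 of 118 fetal calls (2.54%, against 12.7%) and 14 of 168 adult calls (8.33%, against 13.1%). Open chromatin was found at 39.0% of the fetal and 54.8% of the adult calls, against 53.0% and 54.6%. No mark of either population was present at 101 of 236 contacts (42.8%), against 39.2%. The regions differed in these shares. Open chromatin stood at 32.4% of fetal and 49.3% of adult H2-Q calls, and at 81.25% and 76.5% of H2-T calls. Of adult calls, active promoter marks stood at 18.7% for H2-Q and 44.1% for H2-T, and active enhancer marks at 4.48% and 23.5%. No mark was present at 46.2% of H2-Q and 24.3% of H2-T contacts. H2-T had only 16 fetal and 34 adult calls.

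The contacts were short for this table. Median distances were 120 kb for fetal calls and 98.2 kb for adult calls, against 178 and 153 kb in the first batch. H2-Q7 went the other way, with medians of 79.0 kb over 10 fetal calls and 134 kb over 36 adult calls. H2-T22 stayed at 74.0 and 78.2 kb, but its calls towards lower coordinates numbered 2 in fetal and 13 in adult HSCs, while those towards higher coordinates numbered 6 and 11. Its gene lies on the minus strand in RefSeq, so the lower coordinates are the side its transcript runs into.

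Among promoters around the members, those of the first batch had more adult calls in sum and those of the second were near even. Of 18 other first-batch promoters within 1 Mb, 11 had more adult and 5 more fetal calls, 174 fetal and 227 adult calls in all, against 42.1% with more adult calls in the batch. Of 13 second-batch promoters there, 7 had more adult and 5 more fetal calls, 223 fetal and 236 adult calls in all (38.1% with more adult calls in that batch). Gtf2h4 had 8 fetal and 22 adult calls with 15.6 fetal and 9.21 adult FPKM. H2-D1 had 1 fetal and 0 adult calls with 41.5 and 240 FPKM. Over all neighbours, calls and FPKM went the same way at 8 of the 18 first-batch promoters, opposite ways at 8 and calls were equal at 2. In the second batch they went the same way at 3 of 13, opposite ways at 9 and calls were equal at 1.

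Other genes of the class I pathway had higher FPKM in adult HSCs in part. Of 19 other class I and class I-like genes, 7 were captured and 4 had at least 2-fold more FPKM in adult HSCs, with 0 the other way. Among them, H2-K1 had 76.1 fetal and 507 adult FPKM with 7 and 13 calls. Of 15 genes of antigen processing, 11 were captured through 12 promoters, and 6 promoters reached 2-fold in adult HSCs. B2m, the shared light chain, had 81.1 and 418 FPKM. Tap1, a subunit of the peptide transporter, had 10.8 and 40.6 FPKM, and the immunoproteasome subunit Psmb8 had 16.0 and 39.0. Of 12 regulators, 7 were captured: Irf1 (7.81 and 18.1 FPKM) and the class I transactivator Nlrc5 (0.251 and 3.75 FPKM) were at least 2-fold higher in adult HSCs, and Irf8 (7.48 and 0.925 FPKM) was so in fetal HSCs. All 4 captured class II genes of 12, H2-DMa, H2-DMb1, H2-Oa and H2-Ob, were at least 2-fold higher in adult HSCs. The second batch, which holds B2m, Nlrc5, Irf8 and the class II genes, had 16.1% of promoters at 2-fold towards adult and 11.4% towards fetal FPKM. Calls summed to 39 fetal and 39 adult for the other class I genes, 187 and 176 for processing, and 101 and 100 for the regulators. The class II genes had 56 fetal and 70 adult calls, with more adult calls at 2 of 4 promoters and equal numbers at 2.

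Markers of HSCs and progenitors were present in both populations. Of 8 listed genes 6 were captured, 3 with higher adult and 3 with higher fetal FPKM. Taking the mean over the promoters of a gene, their FPKM summed to 120 fetal and 132 adult. Cd34 had 36.3 fetal and 26.5 adult FPKM and Cd48 had 8.20 and 2.23, while Kit had 32.8 and 50.5. Flt3, which encodes the CD135 that the sort excluded, had 6.20 fetal and 3.81 adult FPKM. Markers of other cells moved as well. Summed FPKM was 47.6 fetal and 8.95 adult over 4 of 4 erythroid markers, 19.7 and 2.03 over 4 of 5 macrophage markers, and 71.2 and 5.18 over 3 of 4 neutrophil markers. Over both megakaryocyte markers it was 20.6 fetal and 158 adult. Nkg7, the only captured marker of 4 for T and natural killer cells, had 1.51 and 7.05 FPKM. The B cell, dendritic cell and hepatocyte lists had no captured member. The part of these differences in the H2 values was not tested.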

How the data were processed

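Fetal liver and adult bone marrow HSC Capture-C libraries were compared. Per the submitters' processing notes, Trim Galore 0.41 and Bowtie2 2.2.2 were used with build mm9. The treatment of duplicates and of reads matching several places is not given in the sources used here. The table deposited by the authors lists contacts with a score per population that behaves as a −log10 p-value (0 where not called). Counts deposited by the authors are whole numbers, pooled over the 2 libraries of a batch, whether summed or averaged not being stated. The authors' FPKM per promoter and the 0 or 1 bin annotations deposited by the authors come from other assays of the same populations. The number of value columns left without a population was 0.

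Calls, counts, distances (fragment middle to bin middle) and annotations were tallied with Python 3.11.15, numpy 2.4.6, pandas 2.3.3 and scipy 1.17.1, and figures drawn with matplotlib 3.10.9. The calls per promoter and the FPKM ratio were tested on simulated data, but the tallies of counts, distances and annotations were not. Log2 ratios are adult over fetal, with 1 added to each side for calls and FPKM, which understates changes of low values, and 0 for summed counts. The design's count test was left out for lack of values per library. Depth is known only as the summed counts of listed contacts. Since libraries were pooled, nothing measures the spread between animals. RefSeq (GRCm38.p6) served for names, gene order and promoter sequences only, and all 6 names matched. The members and gene lists were chosen with earlier results of these data known. The rule names every H2-Q and H2-T promoter, their highest contacts and contacts to captured H2 promoters, captured genes of the pathway lists, neighbours and most alike promoters. Alternatives were a stricter score, merged bins, distance limits, other added constants, depth scaling, left-out high contacts and wider windows.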

Additional observations from a re-analysis of the deposited data

How the results depend on the processing

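A score limit 1 unit higher (2.3) left 79 adult and 43 fetal calls, and merging called bins up to 5 kb apart left 77 and 53, against 168 and 118. The log2 ratio of the summed calls (0.51) was 0.86 at the higher limit and 0.11 without H2-Q7 and H2-T22, the latter chosen after seeing the data. Without these promoters 52.4% of contacts had more adult counts (59.7% with them) and 40.5% were adult-specific (50.0%). At H2-Q4 the call ratio turned from -0.35 to 1.0 at the higher limit. The log2 ratio of the summed counts (-0.74) was -0.49 after scaling to the batch totals, -0.024 without contacts of at least 1000 counts, and 0.35 without the highest contact of each promoter. Without that contact the ratio turned to 0.40 at H2-Q7, 0.41 at H2-T22, 0.35 at H2-T23 and -1.49 at H2-T24, which keeps 1 contact; leaving out contacts of at least 1000 counts gave the same 0.40 and 0.41. A constant of 0.1 FPKM moved the median log2 FPKM ratio from 3.04 to 3.22. It moved H2-Q6 from 5.82 to 8.39 and H2-Q7 from 5.42 to 7.87, both with a fetal FPKM below 0.1. The other members moved less. Contacts at captured H2 promoters numbered 27 within 5 kb, against 7, and shared calls were 59.3% of fetal and 56.0% of adult calls. At the higher limit, 35.4% of adult calls stood at active promoters and 0 of 43 fetal calls (0%) at active enhancers, which allows up to 6.98% with 3 calls as the limit of a count of 0. The cause of these shifts was not tested beyond what each alternative leaves out. Of the alternatives for single promoters, 29 stayed within the counting interval, 12 moved beyond it or changed the constant and 7 turned direction. No paired analysis was possible because the deposited columns pool the libraries, and for the same reason no library could be left out. Median counts of called contacts ran from 7 to 33 per promoter and population, which limits the precision of each.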
